A study of Mus musculus with 2 samples.

Results

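CTCF sites in newborn mouse lung were described at 6 genes that brake the cell cycle or carry the p53 response: the CDK inhibitor genes Cdkn2a, Cdkn2b, Cdkn1a and Cdkn1b, the tumour suppressor gene Trp53, and Mdm2. The genes were given as a list. A site belonged to them when its summit, the position of the peak's maximum, lay in the gene, within 1000 bp of a transcription start site (TSS), or within 50000 bp of the gene. Cdkn2a and Cdkn2b lie side by side and were treated as 1 locus, so there were 5 loci. They held 46 of the 64732 sites that the authors' optimal list, thresholded by the irreproducible discovery rate (IDR), has on chromosomes 1 to 19 and X. The samples were lung tissue of postnatal day 0 mice of strain B6NCrl, with no genotype or treatment named in the labels. CTCF was immunoprecipitated in 1 group of 2 replicates, which cite the same biosample and donor. The spread between them may therefore be technical, and no other group was compared.

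CTCF binds DNA through its zinc fingers at a motif that has a direction, and it halts cohesin there as cohesin extrudes chromatin loops. CDK inhibitors hold cyclin-dependent kinases inactive and so keep cells from entering S phase. Cdkn2a is unusual in giving 2 unrelated proteins from separate promoters: Ink4a, an inhibitor of the D-cyclin kinases, and Arf, which binds Mdm2. Mdm2 is the ubiquitin ligase that degrades p53, the product of Trp53, and Mdm2 and Cdkn1a are both classic transcriptional targets of p53. These links are background and were not measured here.

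Of the 6 genes, 5 had a CTCF site within 1000 bp of a TSS of a protein-coding transcript, against 39.8% of all 21646 protein-coding genes. Cdkn1a was the exception, and its nearest site lay 1250 bp past an internal start of the gene. A site in the gene body was present in 5 of 6, against 56.5% of all protein-coding genes, and Cdkn1b was the exception. Cdkn1b did have a body site in the conservative IDR list. The same held among the highest peaks of either replicate alone, taken to the same number as the optimal list. Each of these lists gave 6 of 6, and the share of all genes was not counted for them. All 6 genes had at least 1 site within 50000 bp, as did 87.7% of protein-coding genes. The genes were chosen with earlier results of these data known, and no test was made on these counts.

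The sequences under the sites follow, since the promoter sites differed in how well they matched the CTCF motif. Each is 101 bases of GRCm38 centred on the summit, read 5′ to 3′ on the named strand, with the best match to the 12-base CTCF core motif in capitals. The 7 sites at promoters of the 6 genes include 2 whose best core had at most 1 mismatch, those of Cdkn2b and Trp53.
Trp53, 894 bp upstream of its start (chr11:69579415-69579515, plus strand, 1 mismatch): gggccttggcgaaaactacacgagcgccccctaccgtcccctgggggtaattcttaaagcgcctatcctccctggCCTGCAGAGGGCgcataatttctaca
Cdkn2b, 394 bp into the gene (chr4:89310595-89310695, minus strand, 1 mismatch): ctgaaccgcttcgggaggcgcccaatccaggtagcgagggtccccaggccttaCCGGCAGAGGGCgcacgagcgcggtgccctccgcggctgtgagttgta
Cdkn2a, upstream of the Ink4a start (chr4:89282231-89282331, plus strand, 3 mismatches): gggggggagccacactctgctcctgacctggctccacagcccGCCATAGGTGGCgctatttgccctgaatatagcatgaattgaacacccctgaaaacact
Cdkn2a, upstream of the Arf start (chr4:89294697-89294797, plus strand, 3 mismatches on either strand): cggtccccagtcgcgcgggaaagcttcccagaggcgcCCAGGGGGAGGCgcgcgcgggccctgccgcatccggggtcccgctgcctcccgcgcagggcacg
Cdkn1b, 181 bp upstream (chr6:134920170-134920270, plus strand, 3 mismatches): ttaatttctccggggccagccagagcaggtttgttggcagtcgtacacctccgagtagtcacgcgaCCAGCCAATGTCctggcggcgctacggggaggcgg

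Away from the promoters, the strongest site of each remaining locus had a core within 1 mismatch, and these are shown in the same way.
Cdkn1a, in an intron (chr17:29095585-29095685, minus strand, 1 mismatch): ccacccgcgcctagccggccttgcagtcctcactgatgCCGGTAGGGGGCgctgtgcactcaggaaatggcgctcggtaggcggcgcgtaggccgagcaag
Cdkn1b, 22070 bp beyond its end (chr6:134947533-134947633, minus strand, 0 mismatches): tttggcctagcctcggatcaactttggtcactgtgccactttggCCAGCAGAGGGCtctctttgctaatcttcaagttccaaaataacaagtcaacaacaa
Mdm2, 20684 bp upstream (chr10:117731392-117731492, minus strand, 1 mismatch): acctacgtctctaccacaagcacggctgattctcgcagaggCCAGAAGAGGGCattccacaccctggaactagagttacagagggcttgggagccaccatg

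The site upstream of Trp53 and the site at the start of Mdm2 shared an identical run of 20 bases. It was found by comparing the windows of the 10 sites that are strongest in a locus or lie at a promoter, after their values had been seen. Both are shown as 30 bases on the minus strand with the shared run in capitals.
Trp53 (chr11:69579429-69579458): ccaggGGACGGTAGGGGGCGCTCGTgtagt
Mdm2 (chr10:117710723-117710752): tccgcGGACGGTAGGGGGCGCTCGTcacag
The run occurs 2 times on chromosomes 1 to 19 and X of the reference, both strands read, and in the windows of 2 of the 64732 sites, which are these. Its best match to the core had 2 mismatches. At Trp53 it lay in the same window as the core shown above, on the opposite strand. The 14 bases CGGTAGGGGGCGCT within it were also in the window of the intronic Cdkn1a site, and 12 of all sites (0.0185%) held them on either strand, 6 of them among the 10482 promoter sites (0.0572%). The windows of Cdkn2b and Trp53 shared another run, GCAGAGGGCGCA, which 69 of all sites (0.107%) held. That run overlaps the core shown in capitals at both sites, and the run of 14 bases overlaps the core at Cdkn1a. These matches are descriptions of the sequence and were not tested.

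**Figure D1:**
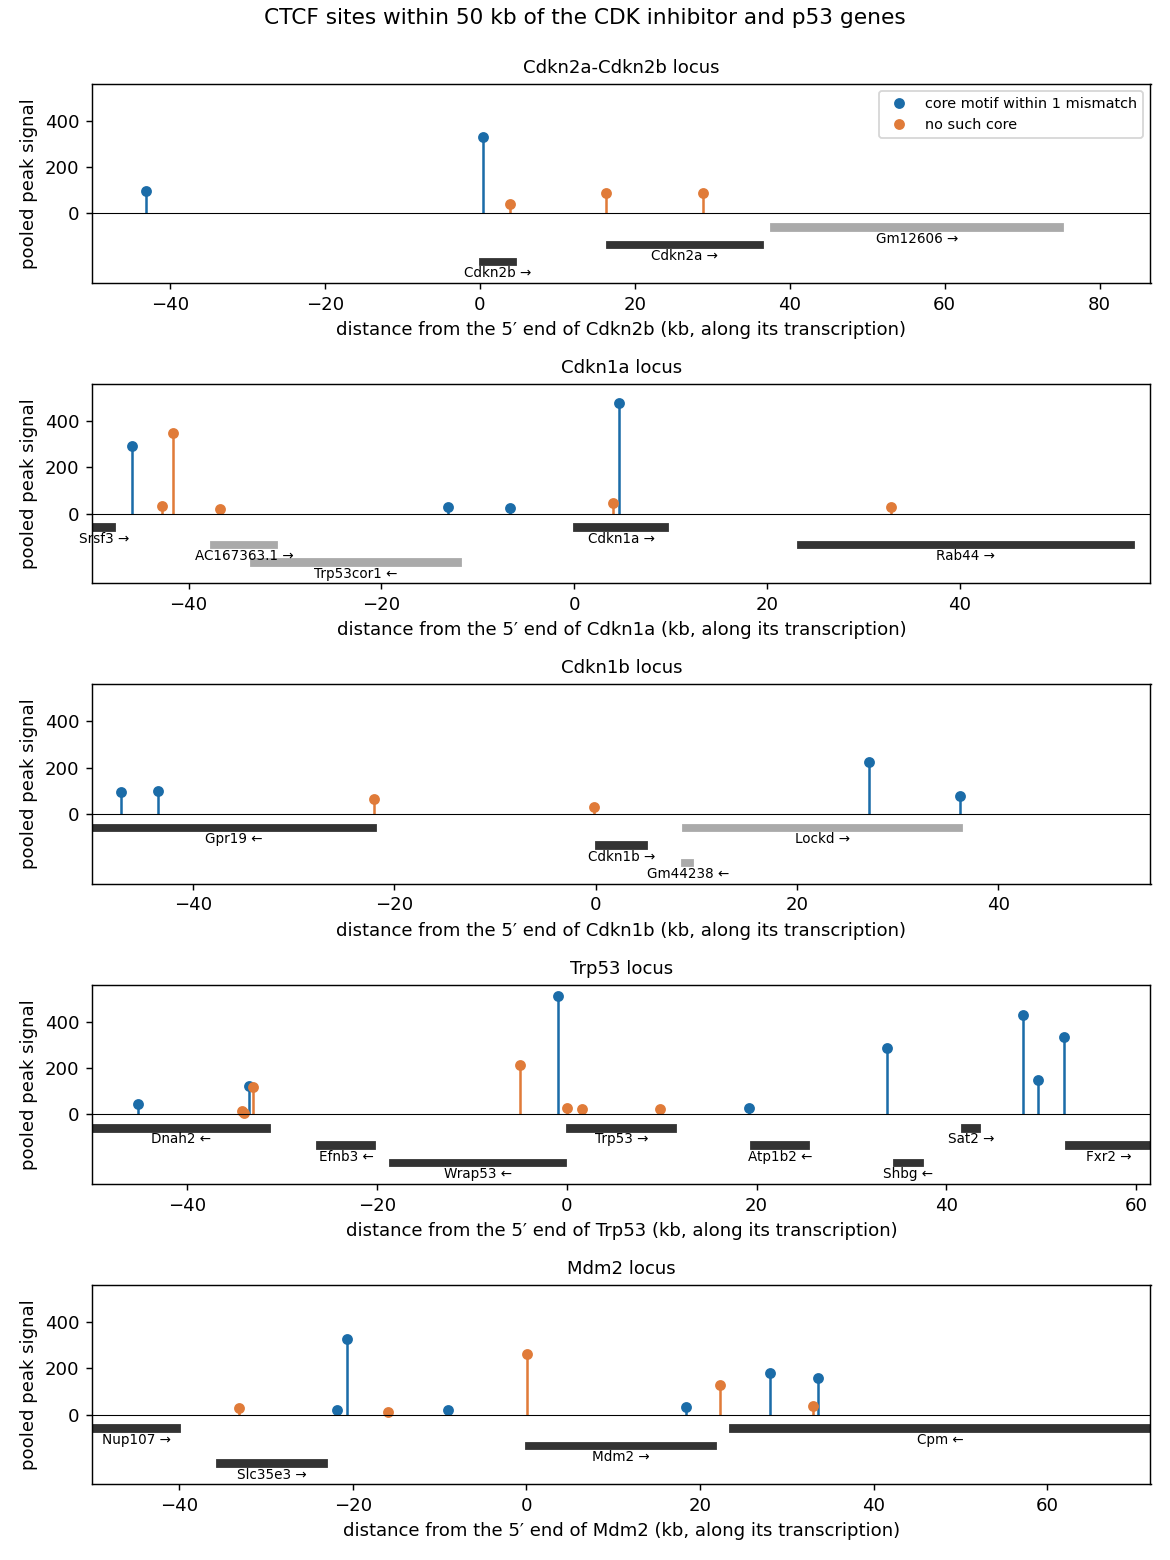
CTCF sites across the 5 loci. The x axis is the distance in kb from the 5′ end of the named gene along its transcription, the y axis is the pooled peak signal, each stem is 1 site, colour shows whether the core motif was present within 1 mismatch, and bars below are protein-coding genes (dark) and long non-coding RNA genes (grey) with arrows for their direction. The tallest stems stand at 512 upstream of Trp53 and at 477 inside Cdkn1a, and the Cdkn2a-Cdkn2b locus has 4 of its 5 sites in or between the genes.

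The Cdkn2a-Cdkn2b stretch runs over 36569 bp of chromosome 4 (mm10, 89274471 to 89311039), with both genes on the minus strand. Each of its 3 annotated protein-coding starts had a CTCF site. The highest was at Cdkn2b, the inhibitor of the D-cyclin kinases that responds to TGF-beta, where the peak from 89310506 to 89310767 reached 147 and 183, written here and below as the peak signal in replicates 1 and 2. Its summit lay 394 bp into the gene, in an intron by the annotation. The site 94 bp upstream of the Arf start (89294607 to 89294886) had 40.8 and 46.1, and the site 89 bp upstream of the Ink4a start (89282141 to 89282420), which lies in the intron of the Arf transcript, had 59.8 and 29.3. The signals of the Arf and Ink4a sites overlapped between replicates, and their mean log2 signals differed by 0.05, less than the spread of 0.23 that sites of like signal show. The Cdkn2b site was above both in each replicate.

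The site ranked lowest in the locus (89307004 to 89307283) lay in a coding exon of Cdkn2b, 3895 bp from its start, with 19.1 and 24.7. The most distant one (89354002 to 89354281) lay 43103 bp upstream of Cdkn2b, with no gene over it, and had 56.5 and 39.2. On the other side, beyond the 3′ end of Cdkn2a, no listed site came before 127948 bp, so the 50000 bp there were empty. Both cores within 1 mismatch, at the Cdkn2b start and at the most distant site, were on the minus strand, which is the strand of both genes. The windows of the Arf and Cdkn2b promoter sites were rich in GC (80.2% and 69.3%), with 15 and 11 CpG dinucleotides in 101 bases, while the Ink4a site had 56.4% and 2. The median over all promoter sites was 63.4% GC and 7 CpG. Taken alone, Cdkn2a had 4 sites and Cdkn2b 5 within 50000 bp. Over all protein-coding genes the median was 6, and 70.5% of genes had as many as Cdkn2a or more.

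Cdkn1a encodes the broad CDK inhibitor p21 that p53 induces (chromosome 17, 29090976 to 29100727, plus strand). It had 9 sites within 50000 bp, and 34.3% of protein-coding genes had as many or more. Its strongest site lay in an intron (29095477 to 29095776), 1854 bp past the nearest protein-coding start, an internal one, and had signals of 228 and 250 in replicates 1 and 2. By pooled signal (477) this was rank 425 of the 64732 sites. It was also GC-rich, with 69.3% GC and 11 CpG dinucleotides. A second intronic site (29094891 to 29095170), 1250 bp past a start, had 29.9 and 15.4. None of its 4 protein-coding transcript starts had a listed site within 1000 bp. In the pooled list, 4 weaker peaks lay that close, at signals of 6.80 to 11.2, and they were in neither thresholded list.

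Upstream of Cdkn1a a group of 4 sites stood 36772 to 45899 bp from the start. Among them 2 were strong, with 153 and 141 at 29044966 to 29045206 and 181 and 166 at 29049226 to 29049457, and the others had 21.1 and 13.03, and 12.1 and 8.77. Nearer the gene, a weak site in an intron of Trp53cor1, the long non-coding RNA gene also known as lincRNA-p21, had 18.4 and 10.1 and an exact core with 0 mismatches. Another, 6685 bp upstream of Cdkn1a, had 16.2 and 5.53. Both of these were absent from the authors' conservative IDR list. The only site on the 3′ side lay in an intron of Rab44, 23115 bp beyond the gene, with 14.8 and 15.4. The 4 cores of the locus alternated in strand along the chromosome, plus, minus, plus, minus. The strong distal core on the plus strand, at 29044966 to 29045206, faced the intronic core of Cdkn1a on the minus strand. The weak Trp53cor1 and upstream cores lay between them. So did the strong site with 181 and 166, whose best core had 2 mismatches and was not counted.

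Cdkn1b encodes p27, the CDK inhibitor that keeps resting cells out of the cycle (chromosome 6, 134920401 to 134925513, plus strand). It had the weakest promoter among the 5 genes with a site by its strongest promoter peak: the peak 181 bp upstream (134920080 to 134920359) had 18.6 and 12.5. It was the only promoter site of Cdkn1b in the optimal list, while the highest peaks of either replicate alone gave 2 and the conservative list 3. Of the genes with a promoter site, 78.9% had one at least as strong. Within 50000 bp there were 6 sites, which is the median of all protein-coding genes. The strongest lay in an intron of Lockd, a long non-coding RNA gene downstream (134947480 to 134947702), with 123 and 108 and an exact core. A further site in an exon of Lockd had 28.1 and 46.5. Upstream, Gpr19, a receptor gene read in the opposite direction, had 2 intronic sites (52.2 and 45.9, and 65.8 and 36.3) and 1 at its own start (41.1 and 25.6). At the latter Lockd site and at the second Gpr19 intron site the log2 ratio of the replicates lay over 2 SD from the mean of sites of like signal.

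Trp53 (chromosome 11, 69580359 to 69591873, plus strand) had the strongest promoter site of the 6 genes. It also had the most sites around it within 50000 bp, though not within 25000 bp. Its start lies beside that of Wrap53, a gene on the other strand whose product is needed for Cajal bodies and telomerase, and the 2 promoter sites counted for both genes. The peak 894 bp upstream of Trp53 (69579286 to 69579616) lies in an intron of Wrap53 and had signals of 264 and 250 in replicates 1 and 2. By pooled signal (512) it was rank 176 of all sites. Only 0.152% of protein-coding genes, 33 in number, had a promoter site at least as strong, counting genes that share a site. At the start itself, 19 bp upstream, the peak was weak (69580200 to 69580479, 16.7 and 12.6) and its best core had 4 mismatches. The values of these neighbouring sites were far apart in both replicates and did not overlap.

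Inside Trp53 both listed sites were weak. An intronic one 1554 bp from the nearest start had 11.9 and 9.35, and one in a non-coding exon near the 3′ end had 15.8 in replicate 1 and no peak within 100 bp in replicate 2. In the 50000 bp upstream, 1 site in a Wrap53 intron (69575340 to 69575530) had 110 and 104. Dnah2, an axonemal dynein gene, held 5 more in its introns. The farthest had 15.8 and 25.7. The other 4 stood 33073 to 34211 bp upstream of Trp53 and differed: 2 had 73.2 and 50.2, and 54.5 and 63.6, while 1 had 7.65 and 8.33 and 1 had 7.84 in replicate 1 and no peak in replicate 2.

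Downstream of Trp53, 4 of the 5 sites were stronger than those inside it in both replicates. The exception lay 7725 bp beyond the 3′ end, next to the end of Atp1b2 (20.1 and 7.23). Farther on came 143 and 142 at 22271 bp, 222 and 208 at 36616 bp, 72.8 and 76.2 at 38119 bp, and 177 and 156 at 40933 bp. The last lay at the start of Fxr2, an RNA-binding protein gene. All 5 had a core within 1 mismatch. In all, Trp53 had 15 sites within 50000 bp, and 8.75% of protein-coding genes had as many or more. With sites within 500 bp of a stronger site dropped it had 13, and the conservative list also gave 13. The 8 cores of the 15 sites read, along the chromosome, 1 on the minus strand, 3 on the plus, 1 on the minus and 3 on the plus. The plus-strand core of the site upstream of Trp53 faced the minus-strand core of the site 22271 bp beyond its end. The weak plus-strand core near Atp1b2 lay between them. The direction of the site upstream of Trp53 rests on its match with 1 mismatch. Its window held 3 matches with at most 2 mismatches. The others were on the minus strand and lay nearer the summit, and 1 of them was in the run shared with Mdm2.

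Mdm2 had a strong site at its start (chromosome 10, 117688875 to 117710758, minus strand). The peak from 117710612 to 117710854 had its summit 27 bp into the 5′ UTR and signals of 138 and 125 in replicates 1 and 2. Its best core had 2 mismatches, and its window held 68.3% GC and 12 CpG dinucleotides. Of the genes with a promoter site, 16.6% had one at least as strong. Within the gene a second site, 18385 bp from the start, had 16.8 and 13.3 and lay in sequence that the reference masks as repeats over 96.0% of its window.

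Around Mdm2 there were 11 sites within 50000 bp, and 22.9% of protein-coding genes had as many or more. The strongest stood 20684 bp upstream (117731305 to 117731555), with 164 and 166. Downstream, 4 sites lay between the 3′ end of Mdm2 and the introns of Cpm, a carboxypeptidase gene. These had 69.8 and 55.2, 104 and 77.1, 16.3 and 21.7, and 82.1 and 77.9, in order away from Mdm2. The remaining 4 were weak, between 5.94 and 15.7 in replicate 1 and between 6.28 and 12.1 in replicate 2, and 3 of them were absent from the conservative list. Of the 6 cores of the locus, the 5 lowest in coordinate were on the minus strand and the last, at a weak site 21840 bp upstream of Mdm2, on the plus strand.

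**Figure D2:**
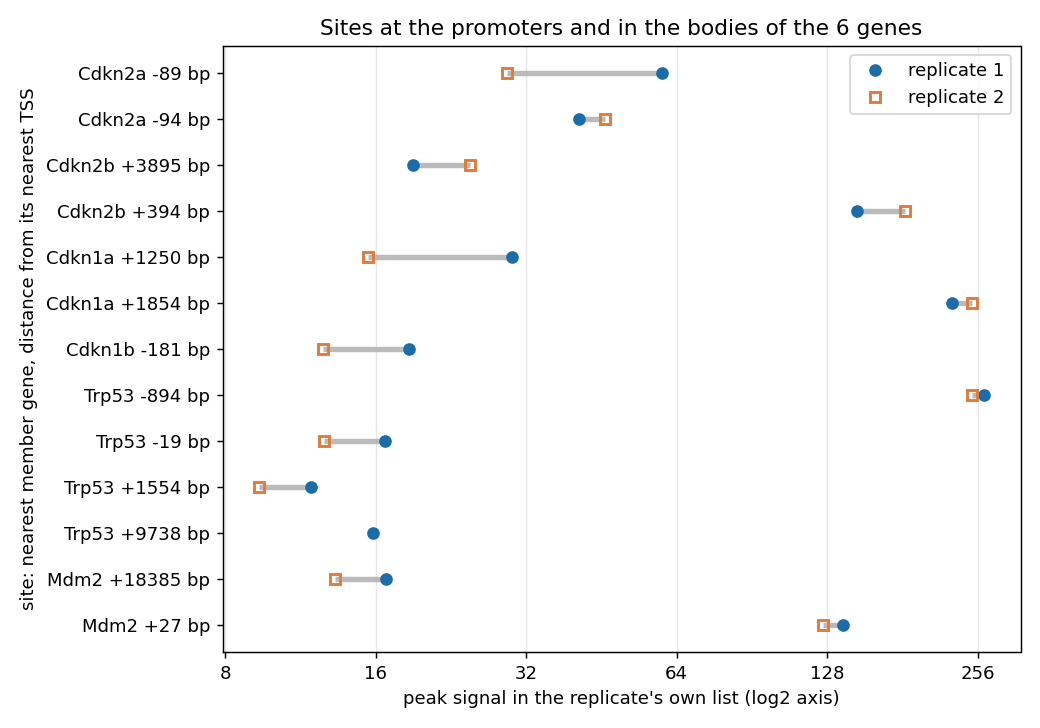
Signal of each site at a promoter or in the body of the 6 genes. The x axis is the peak signal in each replicate's own list on a log2 scale, each row is 1 site named by the nearest gene and its distance in bp from the nearest TSS, filled circles are replicate 1, open squares are replicate 2 and grey bars join them; the Trp53 site at +9738 bp has a point for replicate 1 alone. The sites at Trp53 -894, Cdkn1a +1854, Cdkn2b +394 and Mdm2 +27 lie at 125 or above in both replicates, and all others at 59.8 or below.

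The promoter sites of the 6 genes fell into an order that the replicates mostly kept apart. From highest to lowest mean log2 signal they were Trp53 at -894 bp, Cdkn2b, Mdm2, the Arf start and the Ink4a start of Cdkn2a, Cdkn1b, and Trp53 at -19 bp. The difference between neighbours was 3.17 or more times the spread of sites of like signal for 4 of the 6 pairs, and the replicate values of those pairs did not overlap. The closest of these pairs was Cdkn2b over Mdm2, by 0.32 on the log2 scale. The log2 ratio of the Cdkn2b replicates was itself -0.32, at -2.90 SD of like sites, so the spread used understates the variation at that site. In replicate 1 Cdkn2b had 147 and Mdm2 138. The spread also understates the variation at the Ink4a site (2.78 SD), which enters its pairs with the Arf site and with Cdkn1b. The order of the 2 Cdkn2a starts (0.05) and of Cdkn1b against Trp53 at -19 bp (0.07) could not be told, since both differences were below the spread and the values overlapped. Among the strongest sites of the loci, Trp53 and Cdkn1a also overlapped, with a difference of 0.11 that was 1.72 times the spread, and so did Mdm2 and Cdkn2b.

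**Figure D3:**
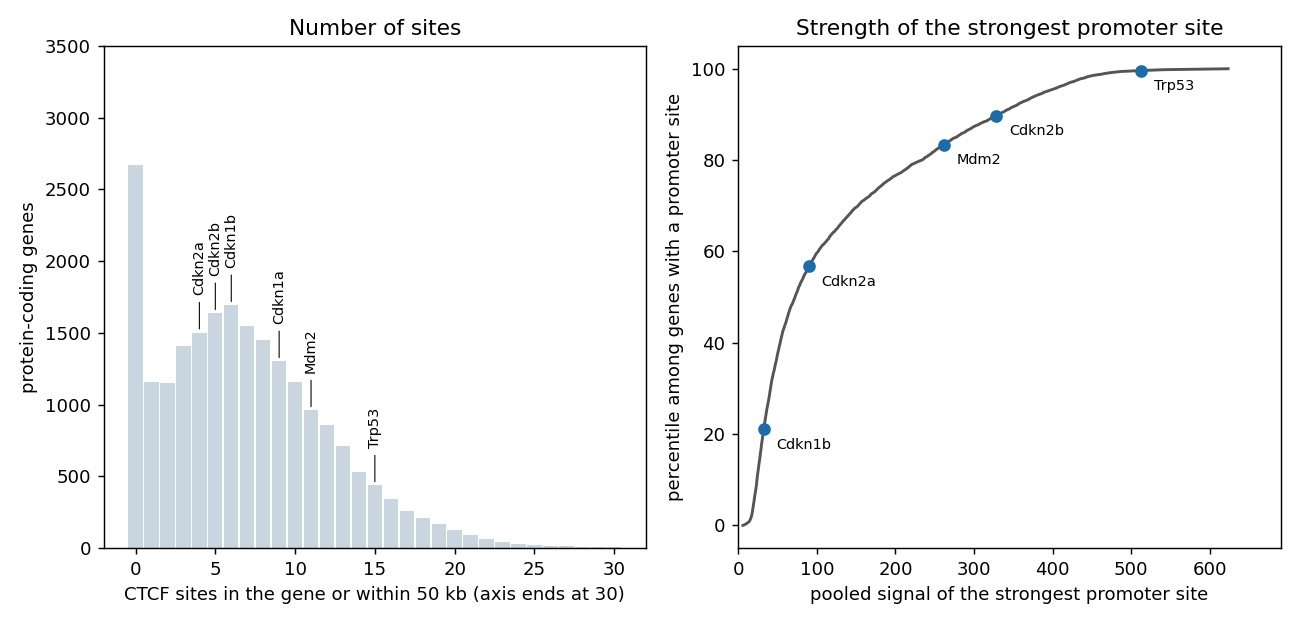
The 6 genes among all protein-coding genes. Left, the x axis is the number of CTCF sites in a gene or within 50 kb of it, bars give the number of genes, and lines mark the 6 genes; right, the curve gives the percentile (y axis) of the pooled signal of a gene's strongest promoter site (x axis) among genes that have one, and dots mark the 5 members. Trp53 is the farthest to the right of the members in both panels, with 15 sites and a signal of 512. Cdkn1b is the lowest of the 5 members on the curve, at a signal of 32.5 near percentile 21.

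In signal and motif content the 46 sites lay near the whole list. Their median pooled signal was 81.6, against 76.2 over all sites, and 23 of them lay above that median. The core motif was present within 50 bp of the summit, with at most 1 mismatch, at 24 of 46 (52.2%, 95% Clopper-Pearson interval 36.9% to 67.1%, which covers counting error only), against 48.3% of all sites. Away from the promoters of the 6 genes it was at 22 of 39 sites (56.4%), against 53.7% of all sites outside promoters. The sets differ, since the 39 keep the sites at the starts of Gpr19 and Fxr2, while the 53.7% leaves out promoters of all protein-coding genes. At those promoters it was at 2 of 7, against 20.6% of all promoter sites. Sites with the core had a median pooled signal of 136 and those without it 35.0 near the 6 genes. Over all sites these medians were 131 and 51.5. A window of over 50% repeat-masked sequence was found at 13 of 46 sites and at 15.5% of all sites.

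**Figure D4:**
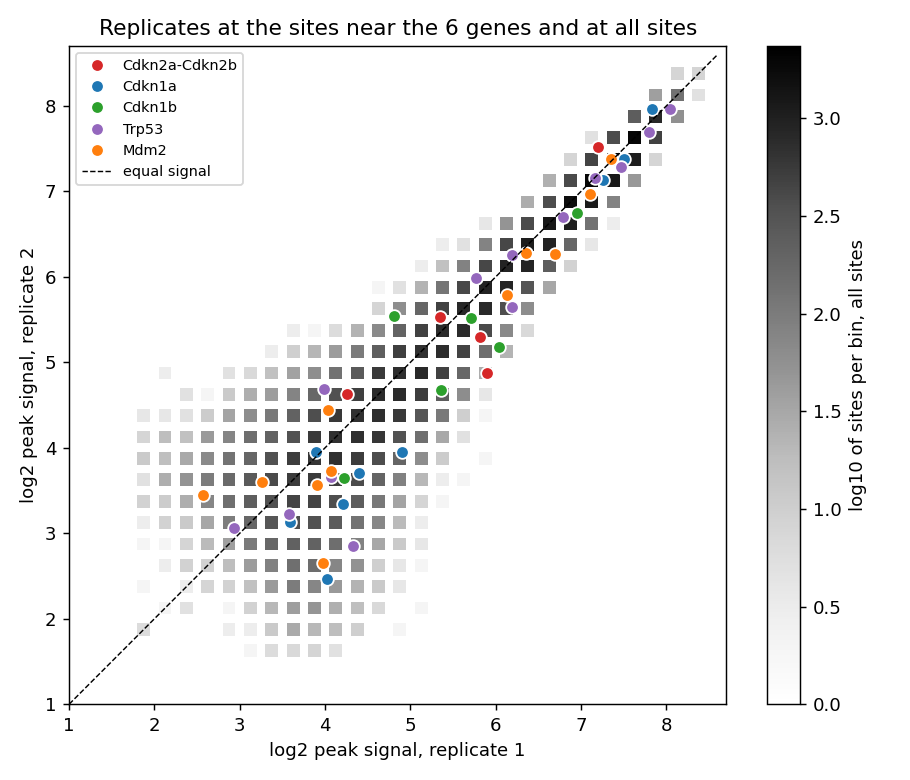
Replicate 2 against replicate 1 at every site with a peak in both. Axes are the log2 of the peak signal in each replicate's list, grey squares give the number of all sites per bin on a log10 scale, coloured dots are the sites of the 5 loci, and the dashed line marks equal signal. Dots above about 7 on both axes hug the line, and weaker ones scatter around it.

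Replicates matched closely at the strong sites and less at the weak ones. Of the 46 sites, 44 had a peak in both replicates, 30 of these with the higher signal in replicate 1 and 14 in replicate 2. Replicate 1 was also the higher at 63.5% of all sites with both. The log2 ratio of the replicates was compared with that of 1000 sites closest in pooled signal. It lay over 2 SD from their mean at 4 sites (the share of all sites beyond 2 SD was not counted). These were the Ink4a start of Cdkn2a (2.78 SD, higher in replicate 1), Cdkn2b (-2.90 SD, higher in replicate 2), and in the Cdkn1b locus the second Gpr19 intron site (2.39 SD) and the Lockd exon site (-2.24 SD). Read depth is unknown, because the lists give no read counts. Lung tissue holds many cell types, and a low signal from binding in few cells and one from weak binding in all cells cannot be told apart.

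Promoter sites were also counted in 54 other genes of these pathways, in 6 lists. A site stood within 1000 bp of a TSS in 28 of them (51.9%), against the 39.8% of all protein-coding genes given above. All 4 other genes listed as CDK inhibitors had one (Cdkn3, in that list, encodes a phosphatase that acts on CDKs), with signals of 75.4 and 60.4 in replicates 1 and 2 at Cdkn2d, 25.5 and 17.8 at Cdkn2c, and 13.1 and 11.4 at Cdkn1c. Of 8 G1 cyclin and kinase genes, 4 had one, led by Cdk6, a kinase that Ink4a inhibits (116 and 112), with Ccne2 (32.02 and 27.8) and Ccnd1 (30.03 and 15.7) next. Genes of the pocket proteins, which restrain E2F factors, and of the E2F factors, some of which drive entry into S phase, had one at 4 of 8. E2f5 (91.0 and 95.7), Rbl1 (49.7 and 40.5) and E2f1 (34.2 and 24.9) were the highest of these.

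Regulators and relatives of p53 had a promoter site at 4 of 9 genes. These included the phosphatase gene Ppm1d (81.9 and 95.2) and the DNA damage kinase genes Chek2 (71.0 and 59.5) and Atm (52.4 and 40.6). Trp63, the p53 relative of basal epithelial cells, had 0 sites within 50000 bp. So did Eda2r of the p53 target list, and 2670 of all 21646 protein-coding genes. Of 18 p53 target genes, 9 had a promoter site. The strongest were at Gadd45a, a growth arrest gene (138 and 126), Plk2, a kinase gene (121 and 124), and Bbc3, which encodes the apoptosis inducer Puma (117 and 115). Polycomb genes, whose products are known to silence Cdkn2a, had one at 3 of 7, namely Cbx7 (51.95 and 38.8), Suz12 (12.8 and 8.25) and Bmi1 (6.34 and 10.3). None of these lists was tested, and no promoter site in them was as strong as that of Trp53 at -894 bp.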

How the data were processed

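CTCF ChIP-seq of newborn lung (2 replicates) was analysed from peak lists on mm10. Per the deposited file descriptions, each replicate's list came from its alignments and 1 further file that both share, a pooled list from both, and the optimal and conservative lists by IDR thresholding of these. Aligner, peak caller and IDR cut-off were not stated in the labels or file descriptions. Both the peak signal (column 7) and the −log10 q-value beside it were deposited by the authors, and the latter was not used. Each peak of both IDR lists carried its pooled signal unchanged. Replicate values are the highest peak within 100 bp of the summit, used without rescaling.

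Sites on chromosomes 1 to 19 and X were placed by summit on GENCODE M21 (GRCm38, the assembly mm10 names; 0 peaks passed a chromosome end). Genes were counted by symbol and needed a protein-coding transcript. The core motif was searched on both strands in 101 bp windows with at most 1 mismatch. The spread between 2 sites is the root of the summed squares of the SDs of the log2 replicate ratio among 1000 like sites, divided by 2. Python 3.11.15, pandas 2.3.3 and pysam 0.24.0 were used. Motif search and gene placement were tested on simulated data.

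The members and lists were chosen with earlier results of these data known. Text names the 6 genes, neighbours with a promoter site, and the 3 strongest genes of each list. Other genes over or beside a site are named for position only, and Cdkn3, Trp63 and Eda2r are named outside this rule. Alternatives were other lists, each replicate alone, sites within 500 bp of a stronger site dropped, other distances and other motif limits.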

Additional observations from a re-analysis of the deposited data

Results flagged for a closer look

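Within 50000 bp of the genes, 4 pooled peaks were in the authors' conservative IDR list but not in the optimal list that the results used. The Cdkn1b gene held 2 of them: 1 in a coding exon, 723 bp past a start, with a pooled signal of 33.2 (17.3 and 14.3 in replicates 1 and 2), and 1 in an intron 922 bp past that start, with 9.43 and no peak within 100 bp in either replicate. Both lie in the gene and within 1000 bp of its start, where the optimal list has 0 body sites and 1 promoter site. A peak in an intron of Dnah2, 49419 bp upstream of Trp53, had 41.5 (25.3 and 15.8) and an exact core with 0 mismatches. The fourth lay 42198 bp upstream of Cdkn1a with 29.9 (16.5 and 11.7). What set them apart between the lists is not known here.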

How the results depend on the processing

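Of 37 alternative values for the main counts and shares, 30 stayed within 1.5 times the count or within the interval of the share, and 7 moved beyond it. The counts of members began at 5 of 6, so they could leave that range only downward. With sites above the median signal only, 23 sites remained near the genes, and 69.6% of them had the core. The core share over all sites above the median was not counted. Of all sites with a signal over 200, a higher cut, 69.8% had the core. With sites above the median only, 11 pathway genes had a promoter site, and 4 of 6 members did, against 19.2% of all genes. Counting to 25000 bp gave 29 sites, with 10 at Mdm2 and 7 at Trp53, and to 100000 bp 74. The core share was 6.52% with 0 mismatches (12.4% over all sites) and 73.9% with 2 (76.2%). From 1 replicate at a time, cut to its top peaks at the length of the optimal list, 5 members had a promoter site, against 40.3% to 40.4% of all genes. A body site was present in 6 members, 43 to 45 sites lay near the genes, and 51.2% to 53.3% of these had the core. Of the pathway genes, 27 to 32 had a promoter site. The shares of all genes with a body site and of all sites with the core were not counted for these lists or the conservative list. Within 5000 bp of a TSS all 6 members had a site (56.6% of all genes), within 500 bp 5 did (33.2%), and Trp53 then lost its site at -894 bp. The conservative list gave a body site in 6 members and 3 promoter sites at Cdkn1b, and without replicate 1 or without replicate 2 there were 2 at Cdkn1b. The Cdkn1b promoter site was lost with sites above the median signal only. No paired analysis was possible because there was 1 group. Without read counts, the precision of weak peaks is known only from the replicate spread.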

Other observations

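Outside the optimal list, the pooled list held 132 more peaks within 50000 bp of the 6 genes, at signals of 5.75 to 41.5, and 14 of them had the core within 1 mismatch. The Trp53 locus had 47 of these peaks and 8 of those cores, the Cdkn1a locus 31 and 2, the Mdm2 locus 25 and 2, and the Cdkn1b locus 22 and 2. The Cdkn2a-Cdkn2b locus had 7 peaks, and 0 had the core. Of these, 2 were singled out after their values were seen. One peak 39464 bp downstream of a Cdkn1b start had an exact core and a pooled signal of 8.84 (3.46 and 6.04 in replicates 1 and 2). Another with the core lay 700 bp into Mdm2 with 10.99 (5.496 and 8.28).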
